A study of Homo sapiens with 60 samples.

Results

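ABCA1, ABCG1, MYLIP, NR1H2, NR1H3, NPC1, NPC2 and SOAT1 are the genes described here, 8 of the 60675 genes in an RNA-seq table of A549 cells exposed to herbal water extracts. They were chosen by name as genes of sterol export, esterification and lysosomal sterol exit and of the liver X receptors (LXRs). Earlier results of these data were known when they were chosen. All 8 were among the 17368 genes kept after removal of genes with low counts. A549 is a human lung carcinoma line with epithelial features, here sampled after 24 h of exposure. The 19 treated groups were wortmannin at 10 µM (the study's positive control) and hot water extracts of Polygalae Radix, Aucklandiae Radix, Zizyphi Semen, Longan Arillus, Schisandrae Fructus and Liriopis seu Ophiopogonis Tuber, each labelled 20, 100 and 500 µg/mL. They are called below by the first word of the name and the dose (Polygalae 500). The 20th group, Vehicle, received 0.1% DMSO by its sample label, while the series' design text gives another percentage and no treated sample's label gives a solvent. Per that text the more toxic extracts were given at lower doses, which the sample labels do not show. Each group held 3 libraries, 60 in all, and nothing in the labels says that these came from separate cultures, so every p-value measures only the spread between these libraries.

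Each library had between 17.7 and 30.6 M expected counts, 24.6 M at the median, with between 22670 and 24395 genes detected in each, and replicates correlated at 0.985 to 0.993 (Pearson's r across genes). Library names placed Vehicle and wortmannin in a set each and the extracts in pairs (Polygalae with Aucklandiae, Zizyphi with Longan, Schisandrae with Liriopis). A difference against Vehicle and a difference between sets therefore cannot be told apart, and each extract was also compared with the other extract of its set at the same dose. Polygalae 20 replicate 1 lay farther from its group than any other library, at 2.46 times the usual distance (median absolute log2 deviation). All 8 epithelial and A549 markers were above 1 CPM (counts per 1 M counts in the library), among them the keratin KRT8 at a mean of 3626 CPM and the aldehyde dehydrogenase ALDH1A1 at 6450 CPM. Of markers of other cell types, 0 of 4 endothelial and 0 of 4 hepatocyte genes and 1 of 5 fibroblast genes (COL1A1) passed 1 CPM. Of 7 blood cell genes, CD68, CD14 and ITGAM passed 1 CPM, while the leukocyte gene PTPRC had a count of 0 in 49 of the 60 libraries and the T-cell gene CD3E in 59.

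Cells take up cholesterol with lipoproteins, free it in the lysosome, and pass it to other membranes. NPC2, a soluble lysosomal protein, binds the sterol and hands it to NPC1 in the lysosomal membrane. Surplus cholesterol is esterified for storage by SOAT1 in the endoplasmic reticulum or exported over the plasma membrane by the transporters ABCA1 and ABCG1. Oxysterols, which form from surplus sterol, activate the nuclear receptors LXRalpha (NR1H3) and LXRbeta (NR1H2). These receptors bind DNA with a retinoid X receptor and raise transcription of ABCA1, ABCG1 and MYLIP, a ubiquitin ligase. When membrane sterol is scarce, the SREBP factors instead raise genes of sterol synthesis and uptake. In the lung, ABCA1 and ABCG1 are known for keeping alveolar cells from overloading with lipid.

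Polygalae 500 changed 7 of the 8 genes against Vehicle, in opposite directions by role. The exporters ABCA1 and ABCG1 and the ligase MYLIP fell, the lysosomal pair NPC1 and NPC2 rose, and NR1H2 and SOAT1 rose by small amounts. NR1H3 had a log2 difference of 0.13 ± 0.0962 (SE) with an adjusted p of 0.40. Differences are log2 fold changes from edgeR's quasi-likelihood test, called at a Benjamini-Hochberg adjusted p under 0.05 over all genes tested. At that threshold 19.9% of all genes were called in this comparison, 10.4% higher and 9.48% lower, against 4 of the 8 higher and 3 lower. Wortmannin changed 4 of the 8 against Vehicle, 2 higher and 2 lower, beside 37.4% of all genes (18% higher and 19.4% lower).

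Among the LXR targets, ABCA1 (ENSG00000165029, chr9:104781002-104928237, minus strand, GRCh38) moves cholesterol and phospholipid to lipid-poor apolipoprotein A-I. It measured 9.14, 8.48 and 8.15 CPM in Polygalae 500, against 15.5, 14.5 and 16.6 CPM in Vehicle. The ranges did not overlap, and Polygalae 500 was the lowest of the 20 groups by its mean. The log2 difference was −0.85 ± 0.0954 (adjusted p = 1.8e-10). Against Aucklandiae 500 of the same library set, which measured 17.6, 15.7 and 16.5 CPM, the difference was −0.95 ± 0.095 (adjusted p = 4.8e-12). At the lower doses the gene measured 11.8, 14.3 and 14.4 CPM in Polygalae 20, with a difference of −0.20 from Vehicle that did not pass (adjusted p = 0.13). These libraries lay below the Vehicle range, with a 95% interval, unadjusted for the number of genes, from −0.37 to −0.02. Against Aucklandiae 20 the difference was −0.24 (adjusted p = 0.097). It passed without Polygalae 20 replicate 3 (−0.29, adjusted p = 0.035) or Aucklandiae 20 replicate 3 (−0.35, adjusted p = 0.032). ABCA1 measured 17.7, 14.8 and 13.9 CPM in Polygalae 100, overlapping Vehicle, with a log2 difference of −0.01 and a 95% interval from −0.18 to 0.16. ABCA1 therefore differed from Vehicle at the highest of the 3 doses and not detectably at the other two.

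ABCG1 (ENSG00000160179, chr21:42199689-42297244, plus strand), which passes cholesterol to high-density lipoprotein, was close to the detection limit. It had 3, 11 and 6 expected counts in Polygalae 500, against 22, 22 and 20 in Vehicle, or 0.14, 0.449 and 0.316 CPM against 0.889, 0.786 and 0.733 CPM. The groups did not overlap, and the difference was −1.37 ± 0.367 (adjusted p = 0.004). Without Polygalae 500 replicate 1, the lowest library, it was −1.03 and no longer passed (adjusted p = 0.06). Against Aucklandiae 500 it was −1.49 ± 0.364 (adjusted p = 0.002). Polygalae 20 lay between 0.708 and 1.14 CPM and Polygalae 100 between 0.641 and 0.919 CPM, both overlapping Vehicle.

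MYLIP (ENSG00000007944, chr6:16129125-16148248, plus strand) measured 2.7, 3.34 and 3.37 CPM in Polygalae 500, against 4.61, 5.04 and 4.88 CPM in Vehicle. Every Polygalae 500 library lay below every Vehicle library, with a difference of −0.63 ± 0.118 (adjusted p = 4.1e-05). Against Aucklandiae 500, at 5.14, 5.45 and 6.28 CPM, it was −0.84 ± 0.116 (adjusted p = 7.4e-08). Aucklandiae 500 had the highest MYLIP mean of the 20 groups and lay above the Vehicle range, though its difference from Vehicle did not pass (0.21, adjusted p = 0.26). The level fell over the Polygalae doses by 0.35 ± 0.0693 on the log2 scale for each 5-fold step (adjusted p = 0.0095 over the 9 libraries), where 5.03% of all genes had a slope that passed. Polygalae 20 lay at 4.56 to 5.67 CPM and Polygalae 100 at 4.14 to 4.73 CPM, and neither passed against Vehicle (differences of 0.08 and −0.11).

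The upstream sequences of the members that moved most are shown because these genes fell or rose together and LXR acts through a known DNA element. RefSeq promoters of GRCh38.p14 were found for 7 of the 8 genes; ABCG1 had no entry. The 160 bases before the annotated start are printed below, with capitals marking each full match, on either strand, to the LXR-type direct repeat (AGGTNA, then any 4 bases, then NGGTCA), the E-box CACGTG or the GC box GGGCGG.
ABCA1, chr9:104928156-104928315, minus strand: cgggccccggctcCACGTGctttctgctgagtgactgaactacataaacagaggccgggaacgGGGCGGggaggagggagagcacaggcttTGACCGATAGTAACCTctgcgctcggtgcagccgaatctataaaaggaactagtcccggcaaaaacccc
MYLIP, chr6:16128926-16129085, plus strand: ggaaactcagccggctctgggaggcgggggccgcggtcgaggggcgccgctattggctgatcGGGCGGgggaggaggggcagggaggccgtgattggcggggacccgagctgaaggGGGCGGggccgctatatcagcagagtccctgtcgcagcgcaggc
NPC1, chr18:23586507-23586666, minus strand: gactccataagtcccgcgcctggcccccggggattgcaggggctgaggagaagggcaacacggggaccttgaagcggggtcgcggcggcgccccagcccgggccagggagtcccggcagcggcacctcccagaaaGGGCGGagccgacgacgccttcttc
NPC2, chr14:74493513-74493672, minus strand: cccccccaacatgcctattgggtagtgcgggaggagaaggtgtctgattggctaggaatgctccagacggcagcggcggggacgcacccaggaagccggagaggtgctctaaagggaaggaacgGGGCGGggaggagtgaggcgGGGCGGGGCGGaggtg
In 250 bases before each start, the direct repeat was found in ABCA1 alone among the 7 genes, on the minus strand of the gene, 69 to 54 bases upstream, where the printed strand reads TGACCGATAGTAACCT. Its open positions were chosen with the published ABCA1 element in mind, so the match was a given. The pattern occurred in 28 of 35116 promoters (0.0797%). The E-box, 147 to 142 bases upstream of ABCA1, occurred in 6.34% of promoters, and the GC box, which lay in all 7 genes, in 42.6%. Neither the sterol regulatory element TCACNCCAC (0.883% of promoters) nor the lysosomal gene element TCACGTGA (0.854%) nor the cyclic AMP element TGACGTCA (1.65%) had a match in the 250 bases of the 7 genes.

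NPC1 (ENSG00000141458, chr18:23506184-23586898, minus strand) measured 97.9, 98.7 and 97.2 CPM in Polygalae 500, against 57.8, 55.6 and 54 CPM in Vehicle. All 3 treated libraries lay far above the Vehicle range, with a difference of 0.81 ± 0.0494 (adjusted p = 1.3e-20). Polygalae 20 measured 51.2, 65.1 and 62.9 CPM, overlapping Vehicle, with a difference of 0.10 ± 0.0511 that did not pass (adjusted p = 0.20). The lowest value came from replicate 1, the library that stood apart. Without that library the difference was 0.20 and passed (adjusted p = 0.0073). Polygalae 100 was above Vehicle, at 80.5, 85.3 and 84.4 CPM and a difference of 0.58 ± 0.0494 (adjusted p = 3.5e-14). Within the library set, Polygalae differed from Aucklandiae by 0.04 ± 0.0514 at 20 µg/mL (adjusted p = 0.71), by 0.49 ± 0.0497 at 100 µg/mL (adjusted p = 2e-11) and by 0.67 ± 0.049 at 500 µg/mL (adjusted p = 4e-17).

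NPC2 (ENSG00000119655, chr14:74476192-74494177, minus strand) had the largest rise of the 8. It measured 75.1, 71.7 and 75.4 CPM in Polygalae 500, against 34.2, 34.7 and 33 CPM in Vehicle, a difference of 1.12 ± 0.0592 (adjusted p = 3.8e-23). Polygalae 20 measured 42.7, 36.6 and 33.7 CPM, the highest value being from the library that stood apart, and did not pass (0.15 ± 0.0631, adjusted p = 0.13). Without Polygalae 20 replicate 3 the difference was 0.22 and passed (adjusted p = 0.013). Polygalae 100 measured 63.7, 61.7 and 62.4 CPM, a difference of 0.88 ± 0.0594 (adjusted p = 4.8e-18), again without overlap. Against Aucklandiae the differences were 0.26 ± 0.0645 at 20 µg/mL, 0.90 ± 0.0604 at 100 µg/mL and 1.19 ± 0.0598 at 500 µg/mL. The first of these (adjusted p = 0.021) was 0.16 without Polygalae 20 replicate 1 (adjusted p = 0.56) and 0.22 without Aucklandiae 20 replicate 2 (adjusted p = 0.13). The summed blood cell markers, chiefly the lysosomal glycoprotein CD68, lay at 14.9 to 15.9 CPM in Vehicle and 10.6 to 15.2 in Polygalae 20. They were higher in Polygalae 100 (20.6 to 22.1), Polygalae 500 (24.5 to 27.9) and wortmannin (21.9 to 26.4), the groups where NPC2 was called higher than in Vehicle. The sums in wortmannin and in Polygalae 100 overlapped, and whether the marker sums bear on NPC2 was not tested. Leukocyte-defining PTPRC stayed at or below 0.0907 CPM in all 60 libraries. The A549 marker sum was 13673 to 13925 CPM in Polygalae 500, against 15686 to 15953 CPM in Vehicle, and its part in the results was not tested. In bulk RNA, fewer cells of a type and less RNA per cell cannot be told apart.

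**Figure D1:**
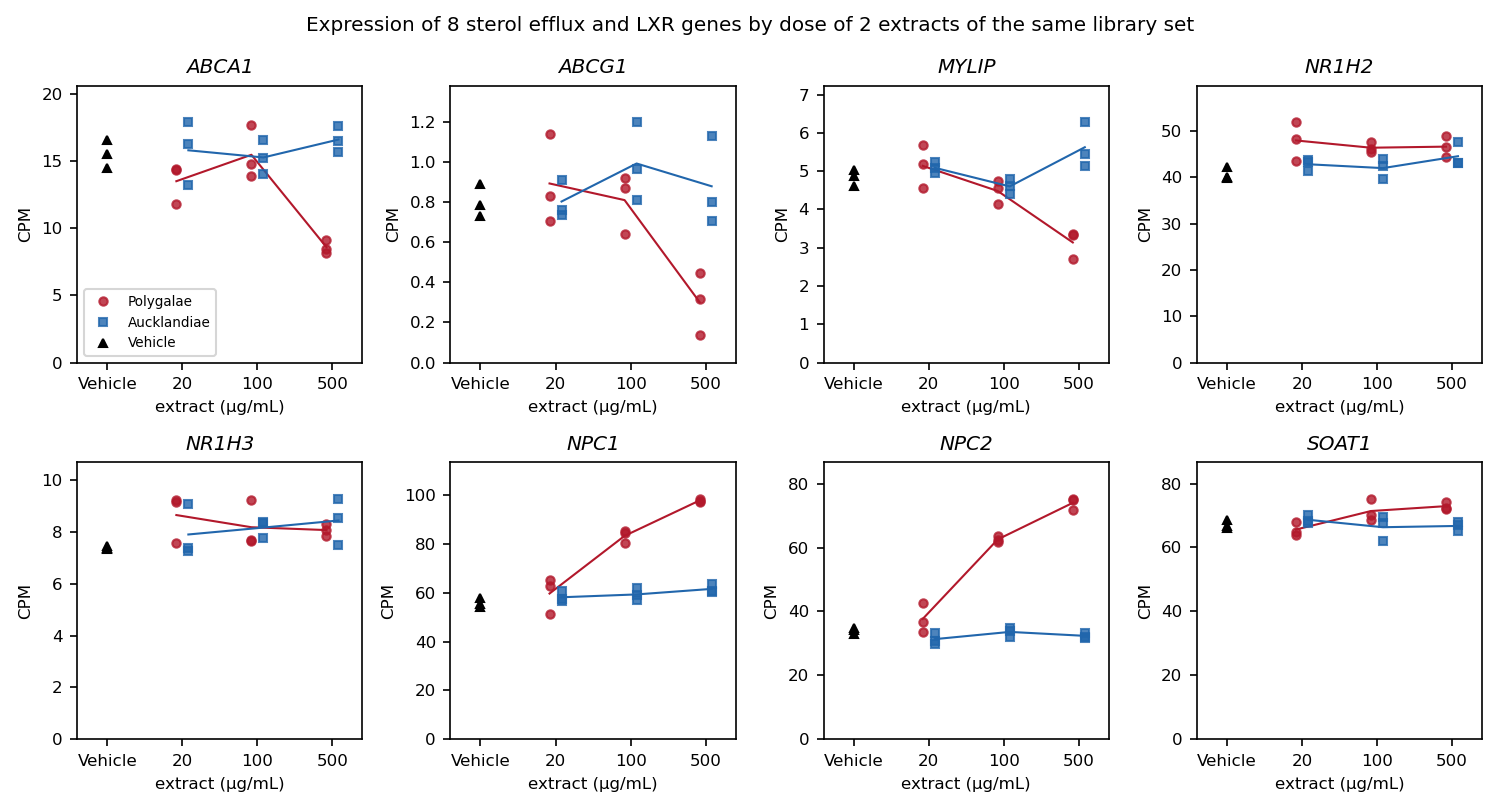
CPM of the 8 genes (vertical axes, from 0) against the dose of Polygalae (red circles) and Aucklandiae (blue squares), the 2 extracts of one library set, with Vehicle (black triangles) at the low end. Points are libraries, 3 a group, and lines join group means; ABCA1 drops between 100 and 500 µg/mL of Polygalae, to a mean of 8.59 CPM against 15.5 CPM at 100 µg/mL, while NPC1 and NPC2 are already raised at 100 µg/mL.

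The dose at which the arms separated was examined with contrasts between adjacent Polygalae doses, chosen after the values had been seen. Over the lower step, Polygalae 100 against Polygalae 20, 3 of the 8 genes were called, beside 9.15% of all genes. These were NPC1 (0.48 ± 0.0497, adjusted p = 6.9e-11), NPC2 (0.74 ± 0.0597, adjusted p = 1.9e-14) and SOAT1 (0.12 ± 0.0387, adjusted p = 0.039). The SOAT1 call was lost without Polygalae 100 replicate 1 or 2 (adjusted p = 0.062 and 0.27) or Polygalae 20 replicate 1 or 2 (adjusted p = 0.14 and 0.13). Over the upper step, Polygalae 500 against Polygalae 100, 5 of the 8 were called, beside 2.24% of all genes. ABCA1 fell by 0.84 ± 0.0964 on the log2 scale (adjusted p = 2.7e-09) and MYLIP by 0.52 ± 0.121 (adjusted p = 0.0056), while NPC1 rose by 0.23 ± 0.048 (adjusted p = 0.0013) and NPC2 by 0.24 ± 0.056 (adjusted p = 0.0058). ABCG1 fell by 1.41 ± 0.368 (adjusted p = 0.02), a call lost without Polygalae 500 replicate 1 or 3 (adjusted p = 0.23 and 0.075) or Polygalae 100 replicate 1 or 3 (adjusted p = 0.065 and 0.13). The MYLIP call was lost without Polygalae 500 replicate 1 (−0.42, adjusted p = 0.11) or Polygalae 100 replicate 3 (−0.47, adjusted p = 0.061). The upper step differed from the lower step in ABCA1 (−1.03 ± 0.157, adjusted p = 1.3e-05) and in NPC2 (−0.50 ± 0.0992, adjusted p = 0.0012), where 1.51% of all genes were called. ABCA1 thus changed mainly over the upper step and NPC2 mainly over the lower one. As a straight line over the 3 doses, NPC1 rose by 0.35 ± 0.0402 (adjusted p = 0.00019) and NPC2 by 0.48 ± 0.0565 (adjusted p = 0.00051) per 5-fold step, while the ABCA1 slope of −0.30 ± 0.117 did not pass (adjusted p = 0.19). DESeq2 called the ABCA1 slope (−0.32, adjusted p = 0.029). The edgeR fit to all libraries called the difference between Polygalae 500 and Polygalae 20, expressed per 5-fold step (−0.33, adjusted p = 7.4e-07). That fit gives Polygalae 100 its own mean, so departure from a straight line does not enter its error.

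SOAT1 (ENSG00000057252, chr1:179293714-179358680, plus strand), the enzyme that esterifies cholesterol, moved little. It measured 72.5, 74.3 and 72 CPM in Polygalae 500, against 68.6, 66.6 and 66.2 CPM in Vehicle, without overlap. The difference was 0.12 ± 0.0385 (adjusted p = 0.018), and 0.13 ± 0.0386 against Aucklandiae 500 (adjusted p = 0.014). Leaving out Polygalae 500 replicate 2 ended both calls (adjusted p = 0.09 and 0.079), as leaving out Vehicle replicate 2 or 3 did for the first (adjusted p = 0.064 and 0.071) and Aucklandiae 500 replicate 3 for the second (adjusted p = 0.08).

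The receptor genes did not follow their targets. NR1H2 (ENSG00000131408, chr19:50329653-50382982, plus strand) measured 51.9, 48.3 and 43.6 CPM in Polygalae 20, 46, 45.5 and 47.6 in Polygalae 100 and 44.3, 48.9 and 46.6 in Polygalae 500, against 40.1, 42.3 and 39.9 CPM in Vehicle. All 9 Polygalae libraries lay above the Vehicle range. The differences were 0.23 ± 0.05 at 20 µg/mL (adjusted p = 0.0014), 0.19 ± 0.0498 at 100 µg/mL (adjusted p = 0.0063) and 0.19 ± 0.0506 at 500 µg/mL (adjusted p = 0.0031), with no slope over dose that passed (−0.02 ± 0.0322, adjusted p = 0.79). NR1H2 was the single member called in Polygalae 20, where 12.1% of all genes were called, and 1 of 3 in Polygalae 100, where 12.8% were. The call at 20 µg/mL was lost when the libraries of that comparison were fitted alone (adjusted p = 0.33). Without Polygalae 100 replicate 3 the adjusted p at 100 µg/mL was 0.054, and without Polygalae 500 replicate 2 that at 500 µg/mL was 0.052. Against Aucklandiae of the same set NR1H2 did not pass at any dose, with differences of 0.16 at 20, 0.14 at 100 and 0.06 at 500 µg/mL (adjusted p = 0.056, 0.069 and 0.47). Its difference from Vehicle was positive in all 19 treated groups, which share the 3 Vehicle libraries.

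NR1H3 (ENSG00000025434, chr11:47248300-47269032, plus strand) measured 8.3, 8.08 and 7.84 CPM in Polygalae 500 and 9.38, 9.05 and 8.23 CPM in wortmannin, against 7.36, 7.39 and 7.44 CPM in Vehicle. The Vehicle libraries were the tightest of these, and both treated groups lay above them. The gene passed in wortmannin alone among the 19 comparisons with Vehicle (0.26 ± 0.0916, adjusted p = 0.018), and without wortmannin replicate 1 or 2 that call was lost (adjusted p = 0.091 and 0.052). Its difference from Vehicle was positive in all 19 treated groups, as for NR1H2, and these share the 3 Vehicle libraries. NR1H3 overlaps ACP2, an acid phosphatase gene on the opposite strand with a higher level (a mean of 23.7 CPM, against 8.13 CPM for NR1H3). ACP2 also rose in wortmannin, by 0.14 ± 0.0555 (adjusted p = 0.047). No source used here says whether the counting used strand, so reads of such overlapping genes may not have been separated. NPC1 overlaps RMC1, and NPC2 overlaps ISCA2, on opposite strands, and in Polygalae 500 these rose by 0.23 ± 0.0606 and 0.30 ± 0.0844 (adjusted p = 0.004 and 0.0072), less than NPC1 and NPC2 themselves.

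Wortmannin inhibits phosphoinositide 3-kinases, which signal at the plasma membrane and in endosomal traffic. It lowered ABCA1 to 12.3, 12.7 and 12 CPM, against 15.5, 14.5 and 16.6 CPM in Vehicle (−0.33 ± 0.0863, adjusted p = 0.0015). NPC2 rose to 53.7, 53.2 and 50.4 CPM, against 34.2, 34.7 and 33 CPM in Vehicle (0.63 ± 0.0597, adjusted p = 5.1e-13). NPC1 went the other way from NPC2, at 50.2, 47.1 and 50.6 CPM in wortmannin, against 57.8, 55.6 and 54 CPM in Vehicle (−0.18 ± 0.0511, adjusted p = 0.0041). The level of NPC1 was thus lowest of the 20 groups in wortmannin and highest in Polygalae 500. ABCG1 measured 1.63, 0.887 and 1.11 CPM in wortmannin, against 0.889, 0.786 and 0.733 CPM in Vehicle, and did not pass (0.59 ± 0.274, adjusted p = 0.082). Without wortmannin replicate 2 its difference was 0.77 (adjusted p = 0.037). MYLIP, NR1H2 and SOAT1 had differences of −0.18, 0.02 and −0.04, none of which passed.

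Set directly against wortmannin, Polygalae 500 differed in 7 of the 8 genes, where 44% of all genes were called. Polygalae and wortmannin lie in different library sets, so a treatment difference and a set difference cannot be told apart here. Polygalae 500 was lower in ABCA1 (−0.52 ± 0.0979), ABCG1 (−1.96 ± 0.342) and MYLIP (−0.45 ± 0.119), with adjusted p-values of 1.3e-05, 3e-06 and 0.0015. It was higher in NPC1 (0.99 ± 0.0497), NPC2 (0.50 ± 0.0563), SOAT1 (0.16 ± 0.0384) and NR1H2 (0.17 ± 0.0502), of which NR1H2 lost its call without Polygalae 500 replicate 2 (adjusted p = 0.059). Against Aucklandiae, 1 of the 8 was called at 20 µg/mL, 2 at 100 µg/mL and 6 at 500 µg/mL, beside 3.89%, 7.43% and 15.2% of all genes.

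**Figure D2:**
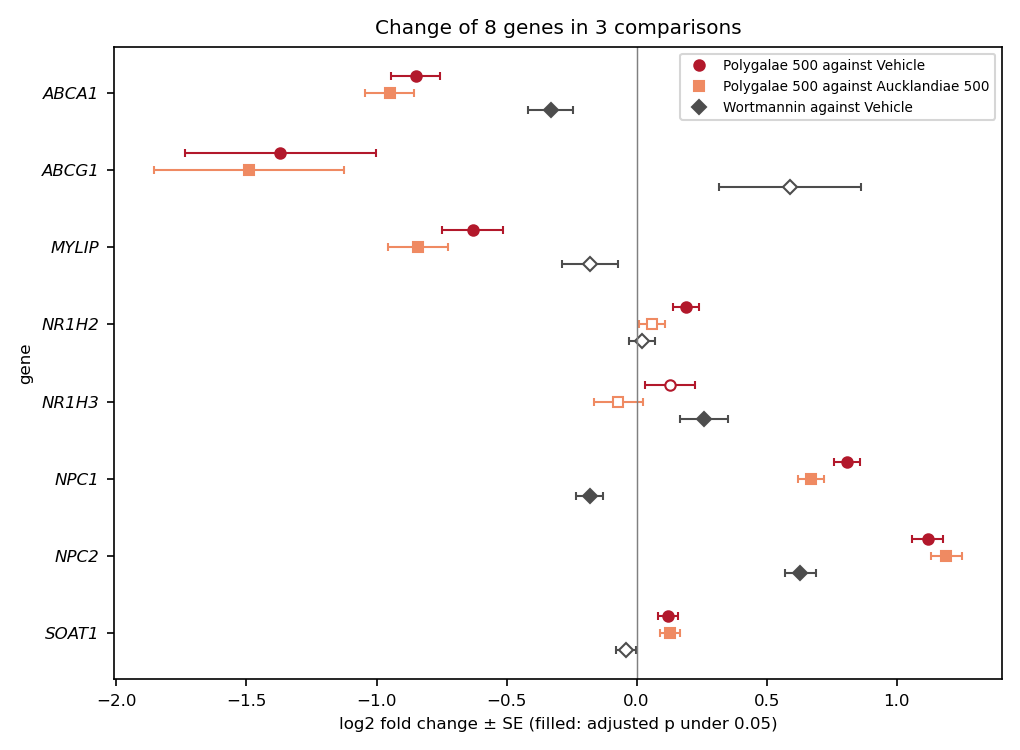
Log2 fold change ± SE (horizontal axis) of each of the 8 genes in Polygalae 500 against Vehicle (dark red circles), Polygalae 500 against Aucklandiae 500 (orange squares) and wortmannin against Vehicle (grey diamonds), filled where the adjusted p was under 0.05. ABCA1 is lower in all 3, NPC2 higher in all 3, and NPC1 lies on opposite sides of 0 in Polygalae 500 (0.81 against Vehicle) and wortmannin (−0.18).

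In the other 15 extract groups, 0 of 120 tests against Vehicle passed by edgeR and 19 had an unadjusted p under 0.05. DESeq2 called 0 of the 75 to which it gave an adjusted p. With the libraries of each comparison fitted alone, edgeR called 6 of the 120. These were NPC1 in Aucklandiae 500 and in Zizyphi 500, 100 and 20, ABCA1 in Schisandrae 500 and ABCG1 in Zizyphi 500. How many of all genes passed in those separate fits was not counted. In the fit to all libraries, 2.99%, 2.04% and 4.93% of all genes were called in Aucklandiae 20, 100 and 500. The shares were 0.363%, 0.599% and 1.81% in the same doses of Zizyphi, and 0.0173%, 0.132% and 0.104% in those of Longan. In Schisandrae 20, 100 and 500 they were 0.196%, 1.4% and 0.478%, and in Liriopis 0.0864%, 0.00576% and 0.00576%. ABCA1 lay between 12 and 18 CPM over the 45 libraries (median 15 CPM), NPC1 between 53.4 and 64.3 (median 59.9) and NPC2 between 29.2 and 39.8 (median 33.6). MYLIP ranged over 3.82 to 6.28 CPM, SOAT1 over 60.8 to 70.2, NR1H2 over 39.6 to 48.2 and NR1H3 over 6.76 to 9.53. In the order of group means, NPC2 was highest in Polygalae 500 (74.1 ± 2.06 CPM, SD, n = 3), followed by Polygalae 100 (62.6 ± 0.982), wortmannin (52.4 ± 1.8) and Polygalae 20 (37.7 ± 4.6), with the other groups between 31.4 and 36.5 CPM, and the last step was smaller than the SD of Polygalae 20. For NPC1, Polygalae 500 (98 ± 0.767 CPM) and Polygalae 100 (83.4 ± 2.54) stood above Zizyphi 20 (62.7 ± 1.46) and Zizyphi 100 (61.7 ± 1.48), which differed by less than their SDs. For ABCA1, Polygalae 500 (8.59 ± 0.502 CPM) was lowest, below wortmannin (12.3 ± 0.347) and Schisandrae 500 (12.8 ± 0.562), which differed by less than the larger of their SDs. The 5 dose slopes of these extracts called 0 of 40 tests by edgeR, with 5 at an unadjusted p under 0.05, and DESeq2 called 0 of 31. Over all genes the share of slopes that passed was 0.967% with Aucklandiae, 0.351% with Zizyphi and 0.0345% with Longan, and with Liriopis and Schisandrae it was 0.0461% and 0.0403%. The 6 comparisons within their sets called 0 of 48, with 3 at an unadjusted p under 0.05, and DESeq2 called 0 of 43, where 0%, 0% and 0.213% of all genes were called between Zizyphi and Longan at 20, 100 and 500 µg/mL and 0.0115%, 0% and 0.322% between Schisandrae and Liriopis.

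**Figure D3:**
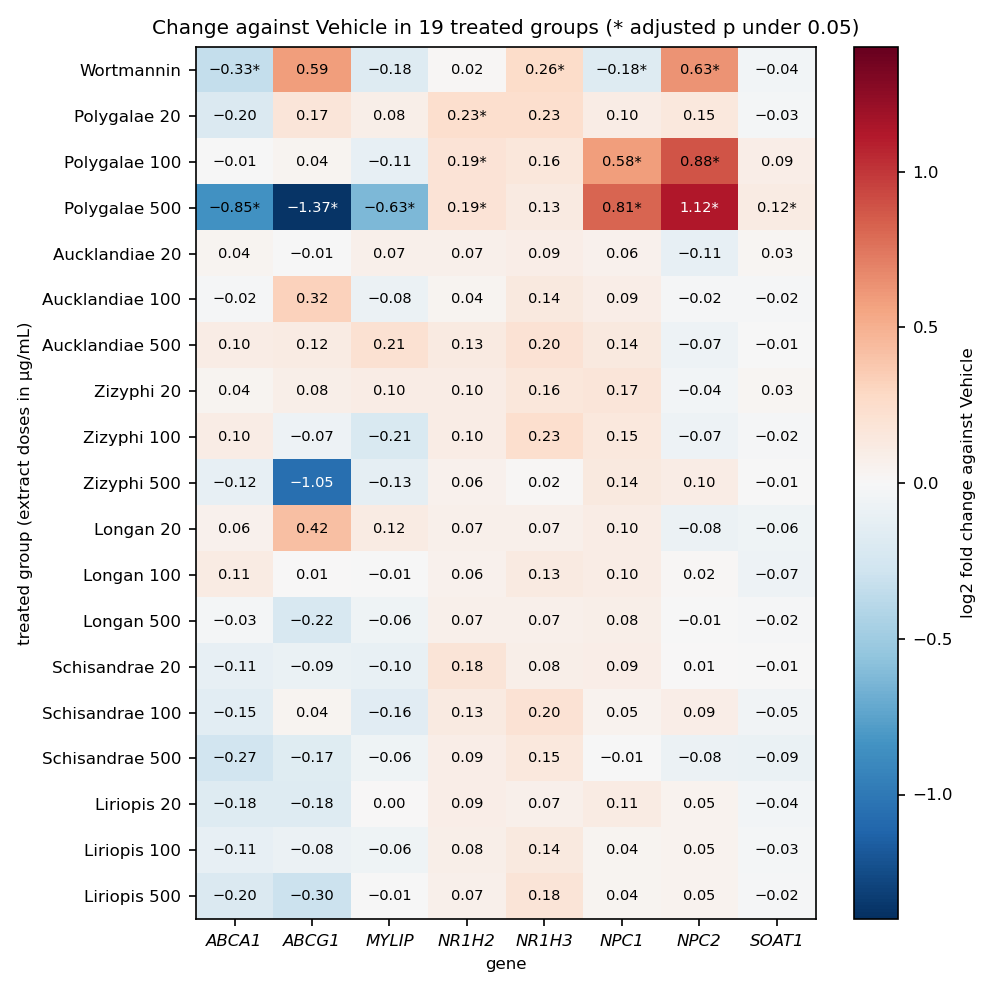
Log2 fold change against Vehicle (colour, and the number in each cell) of the 8 genes in the 19 treated groups, doses in µg/mL, with an asterisk where the adjusted p was under 0.05. Every asterisk lies in the wortmannin and Polygalae rows, and the strongest cell without one is ABCG1 in Zizyphi 500 (−1.05).

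ABCG1 in Zizyphi 500 was the largest of these differences that did not pass. It measured 8 to 11 expected counts, or 0.329 to 0.432 CPM, against 0.733 to 0.889 CPM in Vehicle, with no overlap (−1.05 ± 0.338, adjusted p = 0.099). With the libraries of that comparison fitted alone by edgeR, ABCG1 passed narrowly (adjusted p = 0.049). It differed from Longan 500 by −0.82 (adjusted p = 0.64). ABCA1 and MYLIP had differences of −0.12 and −0.13 in Zizyphi 500. Among 10 further LXR target genes tested, 4 were lower in Zizyphi 500 than in Vehicle and 0 higher, where 0.915% of all genes were called lower and 0.898% higher. The 3 described here are named after their values were seen, and which factor acted on them was not tested. SCD, the stearoyl-CoA desaturase, measured 936, 924 and 909 CPM in Zizyphi 500, against 1025, 1081 and 1000 CPM in Vehicle (−0.17 ± 0.0389, adjusted p = 0.012). SREBF1, which encodes SREBP-1, differed by −0.16 ± 0.0433 (adjusted p = 0.035) and LPCAT3, a phospholipid acyltransferase, by −0.19 ± 0.05 (adjusted p = 0.025). Against Longan 500 of the same set, SCD (−0.22 ± 0.0389) and SREBF1 (−0.22 ± 0.0434) were lower, with adjusted p-values of 0.0016 and 0.007. LPCAT3 did not pass there (−0.17 ± 0.0506, adjusted p = 0.25). Over the Zizyphi doses 5 of the 10 had a negative slope that passed, beside 0.351% of all genes with a slope that passed. Without any single Zizyphi 500 library or Vehicle replicate 3 the count of 4 against Vehicle was 2, and without Vehicle replicate 2 it was 1.

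**Figure D4:**
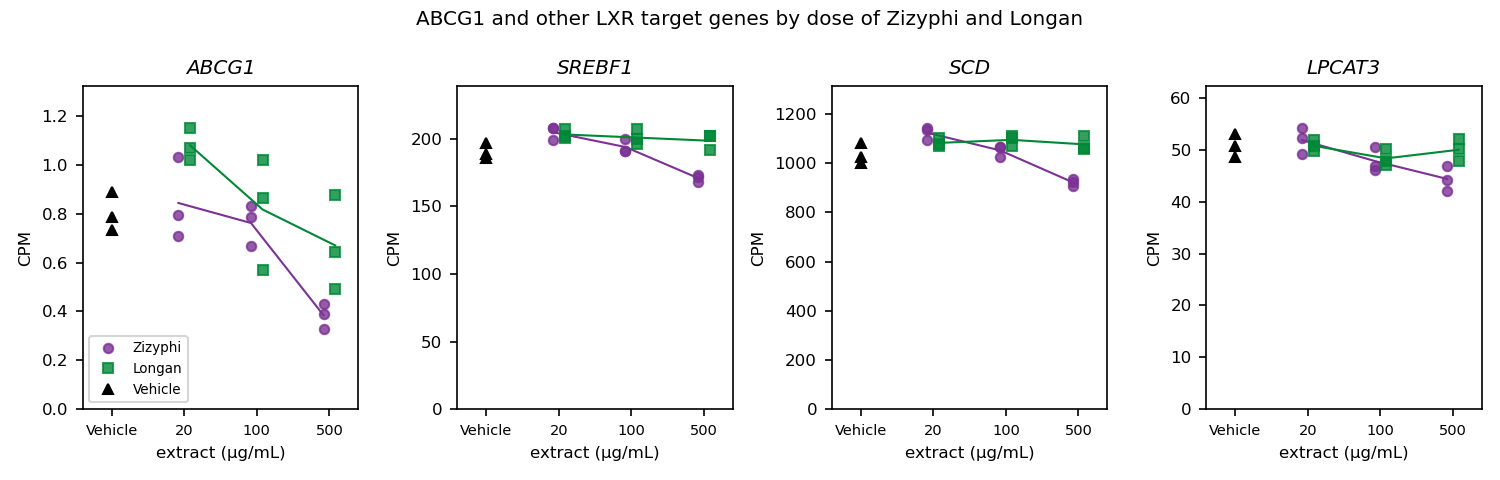
CPM (vertical axes, from 0) of ABCG1 and of SREBF1, SCD and LPCAT3, which were called in Zizyphi 500 against Vehicle, by dose of Zizyphi (purple circles) and Longan (green squares), the 2 extracts of one library set, with Vehicle (black triangles) at the low end. Points are libraries and lines join group means; at 500 µg/mL each Zizyphi library of SCD and of SREBF1 lies below each Longan and Vehicle library.

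The rest of the pathway in Polygalae 500 was read from lists made by function, with earlier results of these data known. Of the 10 further LXR targets tested, 5 rose and 1 fell against Vehicle, with a median log2 difference of 0.15 against 0 over all genes. Beside this and the other list counts against Vehicle, 10.4% of all genes were called higher in Polygalae 500 and 9.48% lower. The apolipoprotein gene APOE rose to 9.63 ± 0.51 CPM, against 4.89 ± 0.528 CPM in Vehicle (0.98 ± 0.115, adjusted p = 7.9e-10) and SCD by 0.77 ± 0.039 (adjusted p = 3.7e-24). A place on this list does not show that LXR rather than another factor acted on a gene, which was not tested. LPCAT3 fell by 0.28 ± 0.0513 (adjusted p = 2.6e-05). SREBF1 had a difference of −0.11 that did not pass (adjusted p = 0.062). Against Aucklandiae 500 of the same library set, 3 of the 10 were higher and 2 lower (median 0.04), beside 15.2% of all genes called. The lower ones were SREBF1 (−0.28 ± 0.0434, adjusted p = 7.3e-07) and LPCAT3 (−0.26 ± 0.0516, adjusted p = 9.9e-05). Of 10 LXR partners and coregulators, 1 rose (the retinoid X receptor gene RXRB, 0.16) and 4 fell, among them GPS2 of a nuclear receptor corepressor complex (−0.19) and the coactivator gene NCOA2 (−0.18).

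Sterol synthesis and uptake genes rose far more widely, 20 of 21 with 0 lower and a median of 0.89 in Polygalae 500. MVD, the mevalonate diphosphate decarboxylase, reached 54.1 ± 4 CPM, against 21 ± 0.497 CPM in Vehicle (1.36 ± 0.063, adjusted p = 5.2e-26). MSMO1, a sterol C4-demethylating oxidase, rose by 1.34 ± 0.0509 (adjusted p = 6.1e-30) and FDPS, the farnesyl diphosphate synthase, by 1.09 ± 0.0417 (adjusted p = 8.8e-30). At 20 µg/mL 3 of the 21 rose with a median of 0.06, beside 12.1% of all genes called in either direction. At 100 µg/mL 19 rose with a median of 0.26, beside 12.8% of all genes. NPC1 and NPC2 at 100 µg/mL, at 0.58 and 0.88, lay above that median.

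Among 22 genes of intracellular and lysosomal sterol transport, 9 rose and 2 fell in Polygalae 500 (median 0.11), beside 10.4% and 9.48% of all genes. The cytosolic sterol carrier STARD4 rose by 0.78 ± 0.0482 (adjusted p = 3.2e-20), the lysosomal membrane protein gene LAMP2 by 0.59 ± 0.033 (adjusted p = 3.1e-22) and the lysosomal channel gene MCOLN1 by 0.47 ± 0.0835 (adjusted p = 1.3e-05). The sterol transporter gene GRAMD1A fell by 0.18 ± 0.0424 (adjusted p = 8e-04) and ANXA6 by 0.14 ± 0.0456 (adjusted p = 0.022). Of 11 ester storage, hydrolysis and other efflux genes, 3 rose and 2 fell. The lipid droplet coat gene PLIN2 reached 30.9 ± 1.86 CPM, against 16.7 ± 0.692 CPM in Vehicle (0.89 ± 0.0589, adjusted p = 6.3e-19), and the esterase gene CES1 rose by 0.42 ± 0.0473 (adjusted p = 2e-10). The HDL receptor gene SCARB1 rose by 0.11 (adjusted p = 0.015), LCAT, which esterifies cholesterol on lipoproteins, fell by 0.59 (adjusted p = 0.0052), and the caveolin gene CAV1 fell by 0.35 (adjusted p = 1.9e-09). Of 6 oxysterol genes, 2 rose, among them EBP (0.62), which is also an enzyme of late cholesterol synthesis, and 1 fell. The sterol sulfotransferase gene SULT2B1 fell to 11.5 ± 1.09 CPM, against 23.3 ± 2.53 CPM in Vehicle (−1.01 ± 0.0757, adjusted p = 1.1e-16).

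**Figure D5:**
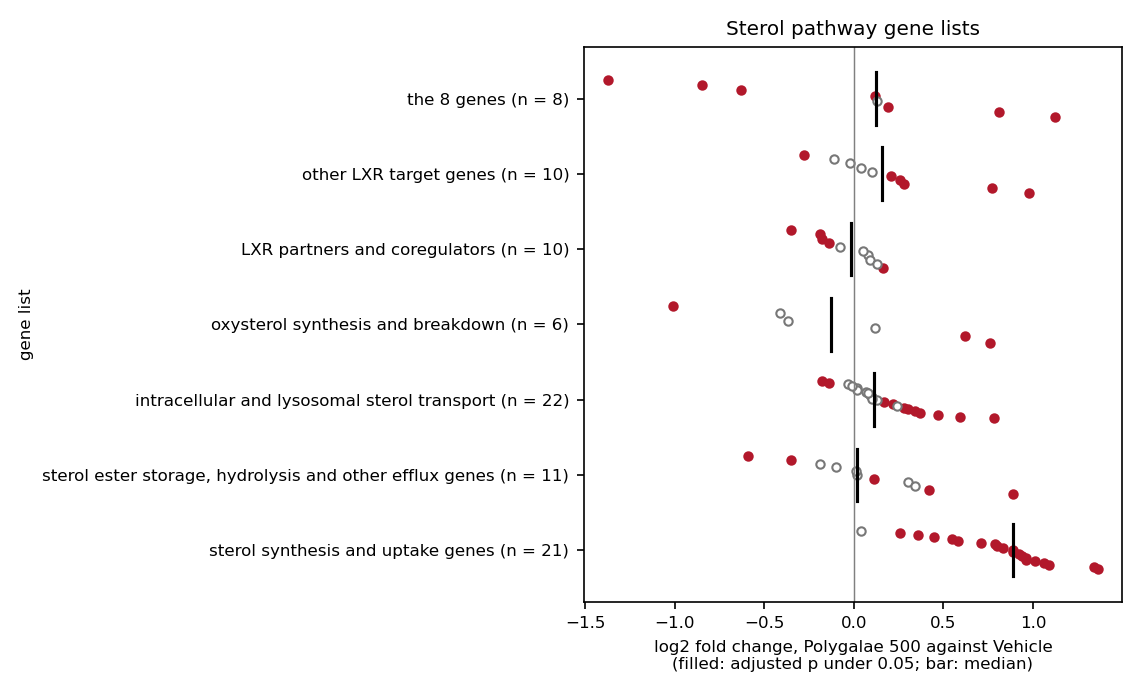
Log2 fold change in Polygalae 500 against Vehicle (horizontal axis) of each tested gene in the 8 members and 6 sterol pathway lists, filled where the adjusted p was under 0.05, with a bar at each list's median. The synthesis and uptake list has its median at 0.89, and the 8 members spread from −1.37 to 1.12.

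The same lists were read in wortmannin, where 37.4% of all genes were called against Vehicle, 18% higher and 19.4% lower. Wortmannin had 14 of the 21 synthesis and uptake genes higher and 1 lower (median 0.20), with MSMO1 at 0.56 ± 0.0521 and MVD at 0.38 ± 0.066 above Vehicle and HSD17B7 at 0.36 ± 0.0757. In the transport list 7 of 22 rose and 1 fell, led by OSBPL5 (0.61 ± 0.0779), an oxysterol-binding protein family member, the lysosomal acid lipase gene LIPA (0.30 ± 0.0357) and the lysosomal membrane receptor gene SCARB2 (0.24 ± 0.0343), while ANXA6 fell by 0.18. Of the 10 further LXR targets 1 rose and 2 fell, a share below that of all genes, and SREBF1 and APOC1 fell by 0.18 and 0.21. Of the 10 partners and coregulators 1 rose (TTC39B, 0.34) and 2 fell (GPS2, by 0.21, and NCOR1, by 0.13), again below that share. Of the 6 oxysterol genes 3 rose and 1 fell. HSD3B7, a sterol dehydrogenase of bile acid synthesis, rose by 0.65 ± 0.0732 and SULT2B1 fell by 0.21. Of the 11 storage, hydrolysis and efflux genes 2 rose and 3 fell. The transporter genes ABCA7 and ABCA2 rose by 0.34 and 0.23, whereas CAV1, PLIN2 and CES1 fell by 0.24, 0.22 and 0.21. PLIN2 and CES1, both higher in Polygalae 500 than in Vehicle, were therefore lower than Vehicle in wortmannin. Adjusted p-values of the genes named here lay under 0.05.

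Genes whose 20 group means followed each member most closely were named by Pearson's r of mean log2 CPM, a description over groups that share library sets. For NPC1 they were NEMP1, HMGXB3 and SLC35F6 (each 0.975), and for NPC2 PTGES (0.979), CTSA (0.978) and ASAH1 (0.966). Without the 3 Polygalae groups the NPC1 values were 0.821, 0.798 and 0.887, and the NPC2 values 0.905, 0.906 and 0.832 over 17 groups. For ABCA1 they were TLN1 (0.894), SND1 (0.89) and COPA (0.886), with 0.772, 0.647 and 0.852 without Polygalae. MYLIP was closest to CTNNA1 (0.817), FGG (0.806) and KLF9 (0.791), which went down to 0.574, 0.436 and 0.38 without Polygalae. ABCG1 was closest to MCM6 (0.808), GTF2IP4 (0.806, a pseudogene whose reads may be shared with its parent gene) and CARHSP1 (0.791), with 0.749, 0.777 and 0.716 without Polygalae. For SOAT1 the closest were SPRING1 (0.852), SPAG9 (0.851) and TNKS2 (0.85), at 0.495, 0.446 and 0.543 without Polygalae. NR1H2 was closest to PAFAH1B3 (0.851), COMMD4 (0.85) and PIGC (0.834), at 0.636, 0.614 and 0.6 without Polygalae. NR1H3 was closest to HSD17B8 (0.819), SMPD3 (0.797) and AAMDC (0.761), at 0.813, 0.812 and 0.743 without Polygalae. Leaving out the Polygalae groups thus lowered r most for SOAT1 and MYLIP and least for NR1H3. These genes were picked for the highest r over all 20 groups, so part of any fall in r comes with the choice, and its size was not tested.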

How the data were processed

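RNA of A549 cells was sequenced from a strand-specific kit as paired-end reads of 100 bases, per the labels' protocols. The deposited table holds expected counts per gene from RSEM 1.3.3; the authors also used FastQC 0.11.9, Trim Galore 0.6.5 and STAR 2.7.3a with GRCh38, per the submitters' processing notes. No source used here names the annotation release or the strand setting. Gene IDs were matched to symbols through a reference table (56558 IDs) and GENCODE 29 (497 IDs, and all gene positions); 3620 had no symbol. Expected counts were rounded (10.7% were not whole). Genes were filtered with edgeR's filterByExpr over the 20 groups, scaled by TMM and fitted with 1 mean per group over all 60 libraries by the robust quasi-likelihood test in edgeR 4.0.16 (limma 3.58.1, R 4.3.3), with p-values adjusted within each comparison over all 17368 genes. CPM values use TMM-scaled library sizes, and log2 CPM a prior count of 2. The standard error is the size of the log2 difference over the square root of its F. Dose slopes were fitted on the 9 libraries of an extract against log dose. Depth limits precision mainly for ABCG1. Chi-square values per degree of freedom between replicates were 2.03 to 25.3, so no library was counted as a duplicate. On data simulated for Polygalae 500 against Vehicle over 17368 genes, 84% of 100 genes changed by 0.5 and 98% of 100 changed by 1 (log2) were recovered. Among the unchanged genes 13 were called. The changed genes all had a mean of at least 1 CPM, which ABCG1 does not reach, and no differences between library sets were simulated. All 8 genes were named throughout; from each list, up to 3 risers and 3 fallers with an adjusted p under 0.05 and a mean of at least 1 CPM, in Polygalae 500 and in wortmannin; and the 3 genes most like each member; some genes under this rule are not reported here. The members and lists were chosen with earlier results of these data known. Alternatives were DESeq2 1.42.0, other scalings, filters and sets of libraries, a replicate block and leaving out each library; same-numbered replicates did not deviate together.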

Additional observations from a re-analysis of the deposited data

Results flagged for a closer look

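In ABCA1, the change over the 100 to 500 µg/mL step of Polygalae differed from that over the 20 to 100 µg/mL step by −1.03 ± 0.157 on the log2 scale (edgeR's quasi-likelihood test, adjusted p = 1.3e-05), and all 3 Polygalae 500 libraries lay below all 3 Polygalae 100 libraries. In NPC2 the same difference was −0.50 ± 0.0992 (adjusted p = 0.0012). Both contrasts were chosen after the values had been seen. Over the 12 alternatives the difference lay between −1.20 and −0.81 for ABCA1 (adjusted p up to 0.0047) and between −0.59 and −0.42 for NPC2 (adjusted p up to 0.019).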

How the results depend on the processing

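Over 304 member results, 3637 alternative values were computed, of which 29 lost a call, 24 gained one and 0 reversed. The other 3584 stayed on the same side of the threshold or had no adjusted p from DESeq2. ABCG1, called in Polygalae 500 against Vehicle and against Polygalae 100, had 1 such value without an adjusted p in each. Fitting the libraries of a comparison alone gave 0 calls in Polygalae 20 against Aucklandiae 20 and in Polygalae 20 against Vehicle (1 each with all libraries), 2 in Zizyphi 500 against Vehicle, and 1 each in Aucklandiae 500, Schisandrae 500, Zizyphi 100 and Zizyphi 20 against Vehicle (0 each with all libraries); the cause was not tested. DESeq2 called 2 in Polygalae 20 against Aucklandiae 20. The edgeR fit to all libraries called 6 for Polygalae, where the straight line over its 9 libraries called 3. It took the difference between Polygalae 500 and Polygalae 20 per 5-fold step, with a separate mean for Polygalae 100. Among the 6 was ABCA1 (−0.33, adjusted p = 7.4e-07), whose straight-line slope DESeq2 called too (−0.32, adjusted p = 0.029). The cause of these changes was not tested. Leaving out 1 library gave 5 to 7 calls in Polygalae 500 against Vehicle, 5 to 6 against Aucklandiae 500, 3 to 5 against Polygalae 100, 1 to 2 in Polygalae 20 against Vehicle, 0 to 3 in Polygalae 20 against Aucklandiae 20, 0 to 1 in Schisandrae 20 against Vehicle and 3 to 4 in wortmannin against Vehicle. ABCG1 was not tested under the 1 CPM filter. SOAT1 in Polygalae 500 against Vehicle was lost under upper-quartile scaling (adjusted p = 0.063) and with no filter (0.18). Scaling moved the median of all genes by at most 0.039 (log2). With a replicate block, 31 of 232 member tests were called, as without it, and 0 calls changed (7 in Polygalae 500 and 4 in wortmannin against Vehicle, 6 in Polygalae 500 against Aucklandiae 500, 3 slopes of Polygalae); the numbers did not pair the samples in any of 29 comparisons (correlations of −0.0548 to 0.0904). For the lists in Polygalae 500 against Vehicle, leaving out libraries or rescaling gave 19 to 20 synthesis and uptake genes higher. Depth limits ABCG1, with 3 to 11 counts in Polygalae 500.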
